A study of Drosophila melanogaster with 2 samples.

Results

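Translation initiation and elongation factor genes were examined for recovery of DNA with GFP-tagged Six4 in fly embryos. They were all protein-coding genes of the dm6 annotation whose symbol begins with eIF or eEF, which gave 52 of 13945 genes on the 6 chromosome arms. The ChIP-seq libraries came from whole Drosophila melanogaster embryos of a stable transgenic line in which Six4, a DNA-binding homeodomain protein related to sine oculis, carries GFP at its C terminus. Embryos were 0 to 16 hours old and of both sexes, and the 2 libraries are biological replicates 1 and 3 of this 1 group. One label field names Six4 as the antibody target, while the sample description gives anti-GFP, so the tag was precipitated. Whether untagged Six4 was also present is not given in the sources used here, and no other genotype, stage or control library was analysed here. The embryos hold every tissue of those stages, so a site used in few cells and a weak site in many cells cannot be told apart.

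Initiation factors bring the initiator tRNA, the small ribosomal subunit and the capped mRNA together, and they release as the large subunit joins. Elongation factors then deliver each charged tRNA and move the ribosome along the message. Embryos begin with maternal stores of these proteins and transcribe most of the genes in nearly all growing cells, while some gene copies in Drosophila serve the male germ line, such as eIF4E3 and eIF4G2.

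Of the 52 genes, 21 (40.4%) had a peak summit between 2 kb before the start and 2 kb past the end of the gene, its window, and 31 had none. The peaks were those of the authors' final set, which passed the irreproducible discovery rate (IDR) procedure and holds 3974 peaks. By the same rule 31.2% of all protein-coding genes had a summit, and among the 5386 genes whose window length lay in the middle range of the factor genes (5.42 to 8.11 kb) the share was 29.7%, with 12 of the 26 factor genes in that range. A summit within 500 bp of an own annotated transcription start site (TSS) was found for 13 of the 52 genes (25%), against 17.3% of all protein-coding genes. Both shares were above the background, and the difference was not tested. The windows of the 21 genes held 33 different peaks, and 9 genes had more than 1.

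The stretches under 6 of these peaks are shown as examples of 3 frequent situations among the factor genes. These are a peak at the gene's own start, a peak between 2 genes that point away from each other, and a peak at the start of a neighbour. Each is the part of the stretch reaching 100 bp from the summit in both directions that overlaps no annotated exon, from the Release 6 (dm6) assembly and on the strand of the gene whose TSS is nearest. Capitals mark TATCGATA (the DNA replication-related element, DRE), TATAAA (the TATA box) and TAATTA (a core of homeodomain sites), searched on both strands. In the eIF4EHP sequence a TATA box and a homeodomain site overlap.
eEF1gamma start (chr3R:29220030-29220171, plus strand): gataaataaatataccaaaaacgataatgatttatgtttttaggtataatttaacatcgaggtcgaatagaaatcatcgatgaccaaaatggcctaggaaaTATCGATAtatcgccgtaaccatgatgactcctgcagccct
RpL28 side of the eIF1 and RpL28 starts (chr3L:3222961-3223147, minus strand): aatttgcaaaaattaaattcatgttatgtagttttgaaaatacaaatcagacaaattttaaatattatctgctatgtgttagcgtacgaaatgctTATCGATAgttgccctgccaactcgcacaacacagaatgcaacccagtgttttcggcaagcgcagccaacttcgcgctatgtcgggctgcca
eIF1 side of the eIF1 and RpL28 starts (chr3L:3223149-3223340, plus strand): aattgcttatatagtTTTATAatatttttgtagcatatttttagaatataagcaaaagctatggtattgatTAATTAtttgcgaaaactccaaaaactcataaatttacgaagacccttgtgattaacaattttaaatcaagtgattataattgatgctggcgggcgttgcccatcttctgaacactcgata
Between the CG18428 and eIF4EHP starts (chr3R:24109075-24109275, plus strand): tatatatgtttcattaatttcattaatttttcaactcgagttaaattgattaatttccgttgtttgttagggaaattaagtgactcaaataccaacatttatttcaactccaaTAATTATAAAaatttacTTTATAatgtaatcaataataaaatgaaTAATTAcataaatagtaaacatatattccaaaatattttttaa
ifc start in the eIF4A window (chr2L:5986166-5986347, plus strand): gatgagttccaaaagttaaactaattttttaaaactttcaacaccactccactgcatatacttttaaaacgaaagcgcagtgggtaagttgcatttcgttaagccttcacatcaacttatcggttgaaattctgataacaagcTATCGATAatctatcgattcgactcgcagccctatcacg
Ugalt start in the eIF2Bbeta window (chrX:2703853-2703978, minus strand): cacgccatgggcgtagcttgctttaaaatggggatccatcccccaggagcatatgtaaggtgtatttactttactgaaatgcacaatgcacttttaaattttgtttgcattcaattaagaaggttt
The sequences at the starts of eEF1gamma, RpL28 and ifc hold a DRE, those of the eIF1 side and of the CG18428 and eIF4EHP starts hold TATA box and homeodomain letters, and that at Ugalt holds none of the motifs searched.

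**Figure D1:**
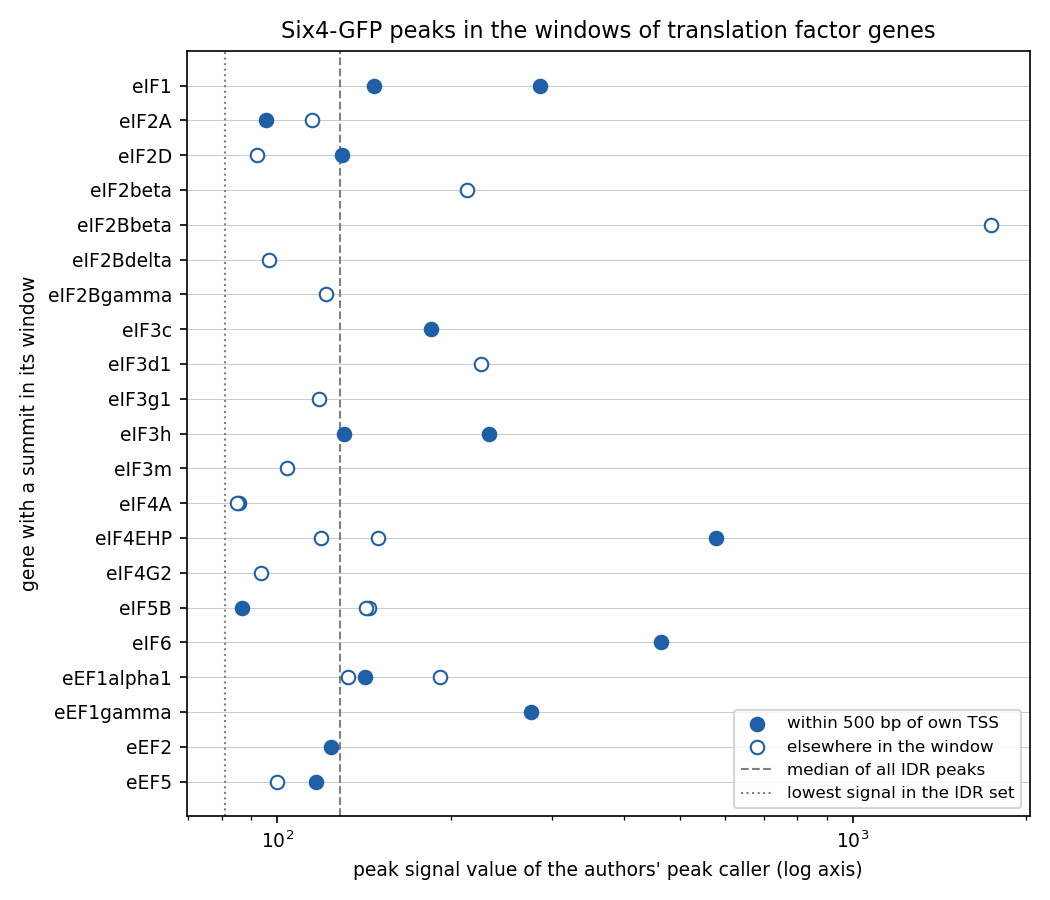
Peak signal value of the authors' peak caller (log axis) for the 33 peaks in the windows of 21 factor genes, with 1 point per peak in the IDR set. Filled points lie within 500 bp of an own TSS, and the dashed and dotted lines are the median (128) and the lowest value (81.1) of all 3974 peaks; eIF2Bbeta stands far to the right, with a peak at the start of its neighbour Ugalt.

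The factors that scan for the start codon were split. eIF1 (FBgn0035423, chr3L:3223341-3224650, plus strand), which guards start codon choice, had 2 peaks in the 381 bp between its TSS and that of RpL28, a large-subunit ribosomal protein gene on the opposite strand. The stronger (chr3L:3222935-3223090) had a signal of 286 in the IDR set, 135 in replicate 1 (rank 366) and 148 in replicate 3 (rank 513). Its summit lay at −294 bp from the eIF1 TSS and at −87 bp from that of RpL28, whose sequence shown above contains the DRE. The weaker (chr3L:3223037-3223460, signal 147) lay at −92 bp from eIF1, and its ranks were 827 and 3074. Both starts thus had a summit of their own in each replicate. Its partner eIF1A had no summit in its window.

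eIF2 carries the initiator tRNA, and none of its 3 subunit genes had a summit within 500 bp of an own TSS. The share of all protein-coding genes was 17.3%, and 3 genes are too few for a reading. The alpha subunit, the target of stress kinases, and the GTP-binding gamma subunit had no summit in their windows. In the window of eIF2beta the single peak (chr3L:12524204-12524339, signal 213, ranks 758 and 841) lay 2490 bp downstream of the eIF2beta TSS and at −186 bp from that of ver. The relatives eIF2A and eIF2D, which take part in non-canonical initiation, each had a summit at their own start. That of eIF2D (chr3R:29151706-29152129) had a signal of 130 at −124 bp and ranks of 2075 and 2177. That of eIF2A (chr3L:21824724-21825147) was weaker, with a signal of 95.7 at −29 bp from the nearest of its 2 TSSs, inside its 5′ UTR, and ranks of 3302 and 4353. Both genes also had a peak at the start of the gene downstream. It was CG32448 for eIF2A (rank 2381) and Pglym78, a phosphoglycerate mutase gene, for eIF2D (signal 92.3, ranks 1675 and 6966).

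eIF2B recharges eIF2 with GTP, and none of its 5 subunit genes had a summit within 500 bp of an own TSS. Among all protein-coding genes 17.3% had one, and 5 genes are too few for a reading of the share. In 3 of the windows a peak lay at a neighbour. The strongest of all 3974 peaks fell in the window of eIF2Bbeta (FBgn0024996, chrX:2704571-2706217). Its signal was 1741 in the IDR set, 702 in replicate 1 (rank 2) and 1044 in replicate 3 (rank 1). The summit was at −693 bp from the eIF2Bbeta TSS but at −26 bp from that of Ugalt, a UDP-galactose transporter gene on the opposite strand. The eIF2Bgamma peak (signal 121) lay 22 bp inside CG8187, and the eIF2Bdelta peak (signal 96.8) at −307 bp from CG30414 and within the 3′ UTR of roh. eIF2Balpha and eIF2Bepsilon had no summit.

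Of 16 genes for eIF3, the scaffold on the small subunit, 5 (31.2%) had a summit in the window and 2 (12.5%) at their own start, near or below the shares of all protein-coding genes. eIF3h (FBgn0022023, chr2L:5051193-5053094, minus strand) had a pair of them. The stronger (chr2L:5052294-5052717, signal 234, ranks 908 and 568) lay in an intron, 274 bp downstream of the nearest of 2 TSSs. The other (chr2L:5052529-5052952, signal 131, ranks 2115 and 2134) lay 39 bp downstream, in the 5′ UTR. The 2 eIF3h peaks were the only ones of eIF3 downstream of an own start within 500 bp. eIF3c, a core subunit, had a summit at −77 bp (chr2R:17665389-17665812, signal 185, ranks 1366 and 830). The peaks in the windows of eIF3d1 (signal 225, ranks 850 and 625), eIF3g1 (118, ranks 5265 and 1722) and eIF3m (104, ranks 4040 and 2217) lay at the starts of GILT2, Smyd3 and CysRS-m. Windows of the other 11 genes (eIF3a, eIF3b, eIF3d2, eIF3e, eIF3f1, eIF3f2, eIF3g2, eIF3i, eIF3j, eIF3k and eIF3l) held no summit. These included the second gene copies eIF3d2, eIF3f2 and eIF3g2, but also eIF3f1, and the peaks of eIF3d1 and eIF3g1 lay at neighbours. With a summit in the windows of only 31.2% of all protein-coding genes, so few copies allow no reading.

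The eIF4 group, which binds and unwinds the cap-proximal mRNA, had a summit in 3 of 13 windows (23.1%), a share below the 31.2% of all protein-coding genes. eIF4EHP (FBgn0053100, chr3R:24063077-24108960, minus strand), a cap-binding protein that blocks translation of maternal mRNAs such as caudal in the fly embryo, had the strongest peak within 500 bp of an own TSS of any factor gene. This peak (chr3R:24108964-24109378) had a signal of 577 in the IDR set, 265 in replicate 1 (rank 62) and 313 in replicate 3 (rank 77). Its summit lay at −215 bp from the eIF4EHP TSS and at −161 bp from that of CG18428, which is transcribed in the opposite direction from a start 376 bp away. Weaker intronic peaks (signals 150 and 119) lay further inside this gene, whose window of 49.9 kb is the longest among the factor genes. Their nearest protein-coding TSS was that of Syx1A, at 6555 and −678 bp. The canonical cap-binding gene eIF4E1 and its copies eIF4E3, eIF4E4, eIF4E5, eIF4E6 and eIF4E7 had no summit in their windows. Their windows were far shorter than that of eIF4EHP, from 4736 bp (eIF4E6) to 7791 bp (eIF4E7). With a share of 31.2% over all protein-coding genes, so few genes allow no reading of this absence.

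The RNA helicase gene eIF4A had a weak peak 89 bp downstream of a TSS (chr2L:5982240-5982663, signal 85.9), close to the lowest signal of the IDR set. It ranked 5022 in replicate 1, outside the first 3974, and 3200 in replicate 3. A peak of like strength (85.0) in its window belonged to the start of ifc, at −82 bp, and contains a DRE. eIF4G2, a germ line copy of the scaffold gene eIF4G1, had an intronic peak (signal 93.5, ranks 4719 and 3719) 981 bp from a TSS that it shares with CG33111. eIF4G1, eIF4B, eIF4H1 and eIF4H2 had no summit.

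Factors of subunit joining gave the second strongest own-start peak. eIF6 (FBgn0034915, chr2R:23849246-23850301, minus strand) keeps the large subunit from joining too early. Its peak (chr2R:23850242-23850533) had a signal of 465 in the IDR set, 196 in replicate 1 (rank 131) and 269 in replicate 3 (rank 117), with the summit at −100 bp. This site overlaps an exon of the antisense RNA gene asRNA:CR45928, and its summit window holds both a DRE and a TATA box. The GTPase gene eIF5B had a weak peak (signal 86.9) 157 bp inside its 5′ UTR, ranked 6587 in replicate 1 and 2670 in replicate 3. Its intronic peaks (signals 144 and 143) lay 21942 and 27793 bp inside the gene, and their nearest protein-coding TSS was that of sty, at −13726 and −7875 bp. eIF5, which triggers GTP hydrolysis by eIF2, had none.

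Of 8 elongation factor genes 4 had a summit at an own start, where 17.3% of all protein-coding genes had one, and so few genes allow no reading of the share. eEF1gamma (FBgn0029176, chr3R:29220172-29222109, plus strand), a subunit of the exchange factor for eEF1alpha, had a peak (chr3R:29220037-29220251) with a signal of 275 in the IDR set, 143 in replicate 1 (rank 303) and 130 in replicate 3 (rank 667). Its summit at −42 bp is within the sequence shown, which has a DRE. eEF1alpha1, the ubiquitous carrier of charged tRNA, had a peak of signal 142 (chr2R:11891852-11892275, ranks 1457 and 1842) at −58 bp from the nearest of its 4 TSSs. That summit lay inside the gene, in an intron of eEF1alpha1. The eEF1alpha1 window also held a pair of peaks (signals 191 and 133) inside the neighbour ERp60. eEF2, the translocase, had a peak of signal 124 (chr2L:21681924-21682347, ranks 1741 and 2806) at −20 bp from the nearest of its 2 TSSs. The summit lay inside its 5′ UTR. eEF5, the hypusine-bearing factor once called eIF5A, had a peak of signal 117 (chr2R:24057592-24058015, ranks 2423 and 2269) 6 bp inside the gene. A further peak in the eEF5 window (signal 100.05) lay 20 bp inside the ribosomal protein gene RpL12. The copy eEF1alpha2, eEF1beta, eEF1delta and eEFSec, the selenocysteine-specific factor, had no summit.

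**Figure D2:**
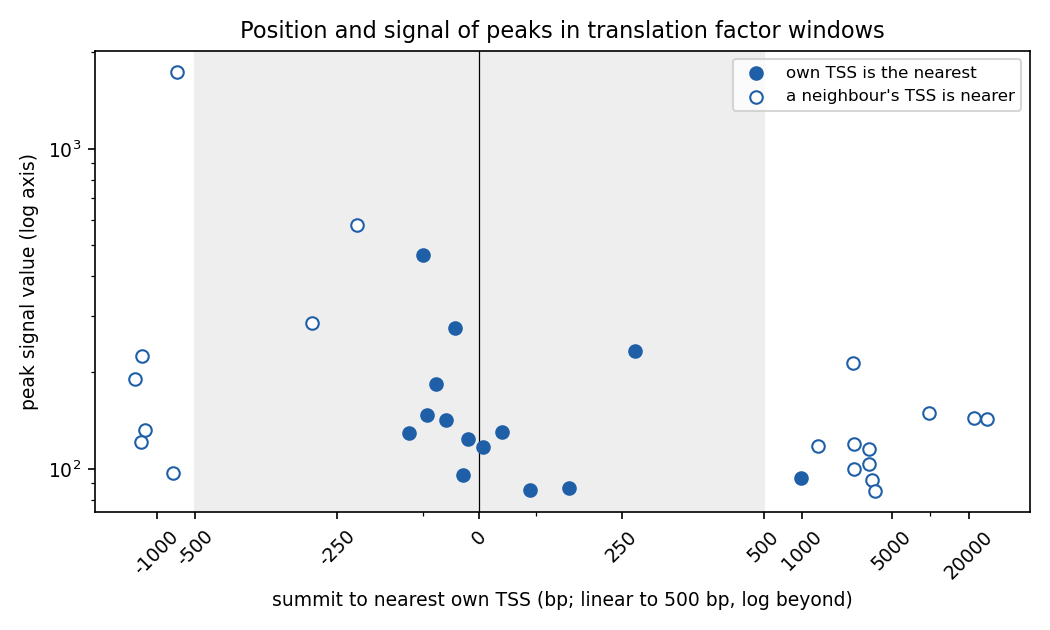
Distance of each of the 33 summits from the nearest own TSS (bp, negative upstream, linear to 500 bp and log beyond) against its signal value (log axis). Filled points have an own TSS as the nearest protein-coding TSS; 14 do, and 13 of these lie in the shaded range within 500 bp of it.

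Many of the peaks lay nearer to the start of a neighbour than to that of the factor gene. For 19 of the 33 peaks a neighbour's TSS was nearer than that of the factor gene, and 13 of these 19 lay within 500 bp of that TSS. Of the 21 genes with a summit in the window, 9 had their strongest peak nearest to an own TSS. The 15 peaks within 500 bp of an own TSS had signals from 85.9 to 577 with a median of 142, against a median of 135 over the 1861 IDR peaks within 500 bp of any protein-coding TSS. Their distances to the nearest own TSS had a median of −42 bp and 10 of 15 were upstream of it. Some of these 10 still lay inside the gene, as for eEF1alpha1, eEF2 and eIF2A. Over the 1861 peaks the median was −117 bp and 85.2% were upstream. All 33 peaks had a median rank of 1919, near the median rank of 1987.5 in the whole set. The strongest peak of each of the 21 genes, which a gene with several peaks ranks higher by construction, had a median rank of 1626.

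Peaks outside the windows were few. The peak on chr3R:29214267-29214610, with a signal of 700 and rank 32, had the eEF1gamma TSS as its nearest protein-coding start, at −5722 bp. A weak peak (signal 83.4) lay at −3973 bp from the same gene, and 1 (signal 81.9) at −12543 bp from eIF4E5.

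Both replicates listed all 33 peaks, each matched to an entry of its own. The IDR procedure selected these peaks for agreement between the same replicates, and the replicate lists include background entries. Their presence in both lists is therefore not a separate result. Summits were displaced by a median of 14 bp in replicate 1 and 10 bp in replicate 3 from those of the IDR set. Among the first 3974 entries of each replicate, 25 of the 33 peaks were found in replicate 1, 31 in replicate 3 and 23 in both. The weak peaks differed most in rank. The Pglym78 peak in the eIF2D window ranked 1675 and 6966, and the eIF5B start peak 6587 and 2670. The replicate lists hold 30000 and 28237 entries, so ranks describe order within a list only.

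**Figure D3:**
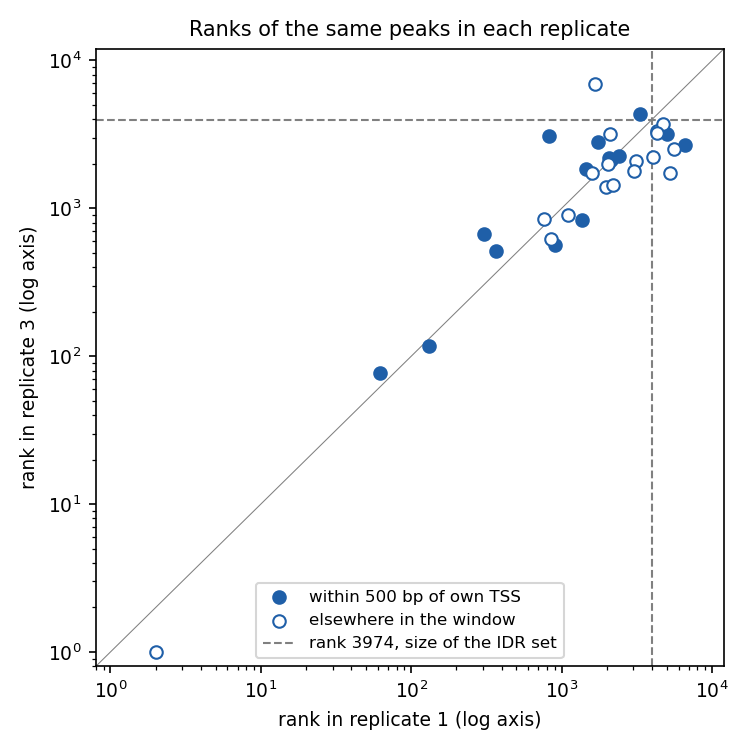
Rank of each of the 33 peaks in the list of replicate 1 against its rank in that of replicate 3 (both log axes, rank 1 the strongest signal). Dashed lines mark rank 3974, the size of the IDR set; the peaks of eIF2Bbeta, eIF4EHP and eIF6 are in the lower left, and the scatter around the diagonal is widest above rank 1000.

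The counts moved with the peak list and with the rule, and so did the background. Each percentage in brackets in this paragraph is the share of all protein-coding genes under the same rule. With the 3974 strongest entries of replicate 3 alone, the same 21 genes had a summit in the window (31.1% of all genes), and with those of replicate 1 alone 17 had (31.1%), without eIF2Bdelta, eIF3g1, eIF4A and eIF4G2. At own starts 12 genes were found in replicate 3 (17.2% of all genes), without eIF2A. In replicate 1 there were also 12 (17.3%), without eIF4A and eIF5B and with eIF3m. With the 1987 strongest IDR peaks 12 windows had a summit (18.9% of all genes) and 8 starts (9.71%). The gene body alone gave 9 genes (10.4%), a 5 kb extension 25 (43.7%), overlap of the whole peak 21 (32.1%), and the nearest TSS rule 14 (19.9%). The nearest TSS rule dropped 8 of the 21 genes and added eIF4E5. Those dropped were eIF2Bbeta, eIF2Bdelta, eIF2Bgamma, eIF2beta, eIF3d1, eIF3g1, eIF3m and eIF4EHP. Within 250 bp of a TSS the same 13 genes were found (13.6%), and within 1000 bp 16 (19.9%). The members' share was above that of all genes under each of these rules. It was so by the least for the windows in replicate 1, with 17 of 52 genes, 32.7% against 31.1%. The rules share most of their peaks and genes, so they are not separate results, and no difference was tested.

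Below the IDR threshold many more of the genes had an entry at their start. The pooled list of 30000 entries, background included, placed a summit within 500 bp of an own TSS for 34 of the 52 genes (65.4%), against 52.6% of all protein-coding genes. Just past the last IDR rank of 3974 came eIF3a at 4374 (signal 75.7), eIF1A at 4527 (74.1) and eIF3m at 4608 (73.3). Just inside it were eIF4A at 3658 and eIF5B at 3601. Among the eIF3 genes 12 of 16 had such an entry, 10 of them below the threshold. Of the 18 genes with none, 5 were copies of the cap-binding gene (eIF4E3 to eIF4E7) and 3 the second copies eIF3d2, eIF3f2 and eIF3g2. The others were eIF2alpha, 4 of the 5 eIF2B genes, eIF3i, eIF4B, eIF4H2, eEF1delta and eEFSec.

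**Figure D4:**
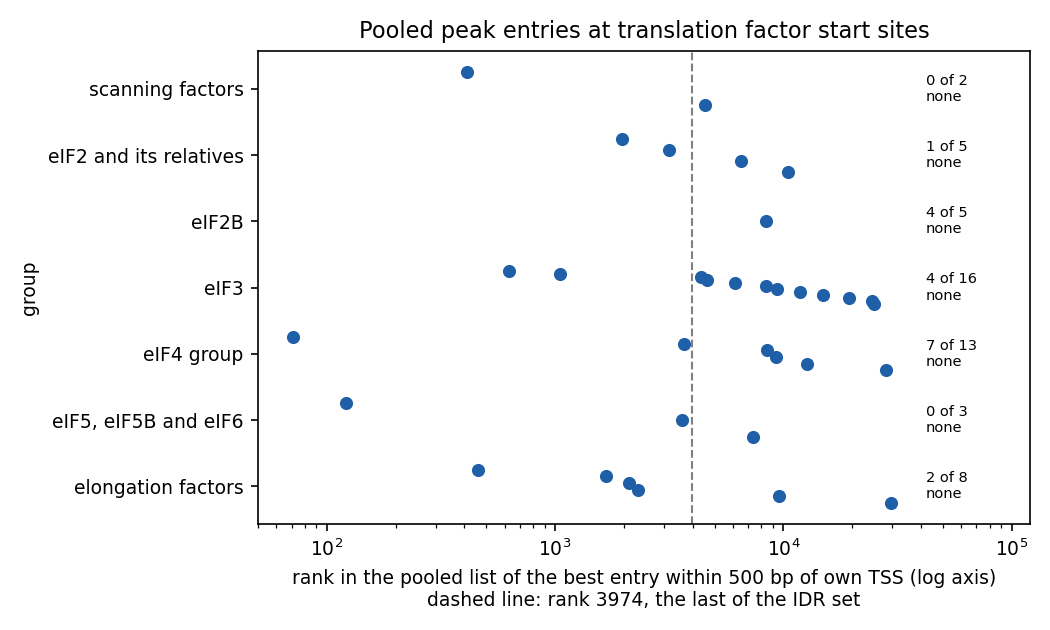
Rank (log axis) in the pooled list of the best entry within 500 bp of an own TSS, with 1 point per gene in rows by group; text at the right gives the number of genes with no such entry. Of 34 genes with an entry 13 lie left of the dashed line at rank 3974, and eIF2B has a single point, right of the line.

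Promoter elements were compared between the factor genes and all protein-coding genes as shares, with no test. In the region from 250 bp upstream to 50 bp downstream of an own TSS the DRE was found in 15 of 52 genes (28.8%), against 10.2% of all protein-coding genes. Among 92 cytosolic ribosomal protein genes its share was 30.4%, close to that of the factor genes. Pyrimidine words of the initiator of ribosomal protein genes (TCTTTT or TCTTTC or CCTTTT or CCTTTC on the sense strand within 20 bp of a TSS) were in 18 (34.6%), against 6.78% of all genes and 87.0% of 92 cytosolic ribosomal protein genes. Such words were found in 7 of the 13 genes with a summit at their start, among them eEF2, eEF1alpha1, eEF5, eIF4A and eIF3h. They were found in 11 of the 39 without. For the DRE the counts were 5 of 13 and 10 of 39. The TATA box letters TATAAA, counted at any position in the region, were present in 24 of 52 (46.2%) against 51.3%. The M1BP site (GGTCACACT), a core promoter element, was in 4 (7.69%) against 6.78%. The homeodomain core TAATTA was in 17 (32.7%) against 24.3%, the E box CAGCTG in 5 (9.62%) against 22.3%, and TGATAC in 3 (5.77%) against 9.87%. Split by a summit at the start, TATAAA was in 9 of 13 and 15 of 39 genes, and TAATTA in 3 of 13 and 14 of 39. The M1BP site, the E box and TGATAC were each in 1 of the 13, and in 3, 4 and 2 of the 39. No split was tested. A gene with more annotated TSSs has more places for both a motif and a summit.

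Within 100 bp of the 33 summits a DRE was present at 5 peaks (15.2%), against 3.40% of all IDR peaks and 6.99% of the 1861 at protein-coding starts. They were the peaks at the starts of eIF6, RpL28 (eIF1 window), eEF1gamma, eIF2A and ifc (eIF4A window). The M1BP site was at 2 peaks (6.06%), against 1.33% of all IDR peaks and 2.74% of the 1861 at protein-coding starts. They were those of CG32448 in the eIF2A window and of CG30414 in the eIF2Bdelta window. None of the 15 peaks within 500 bp of an own TSS had this site. TGATAC, the core of sites bound by proteins of the sine oculis family, was at 0 of 33 peaks. Its share was 6.49% of all IDR peaks and 5.43% of the 1861 at protein-coding starts. At shares this low, 33 peaks are too few for a reading of the 0. The TATA box was at 10 (30.3% against 37.7% of all IDR peaks), TAATTA at 5 (15.2% against 18.4%) and the E box CAGCTG at 2 (6.06% against 8.35%). Over the 1861 peaks at protein-coding starts these 3 shares were 39.5%, 19.0% and 11.2%. Summit windows had a median of 38.8% G and C, against 34.3% over all IDR peaks, and its part in these counts was not tested.

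In other lists of translation genes larger shares had a summit than among the initiation and elongation factors. Of 17 partners, such as release factors, 4E-binding proteins and eIF2 kinases, 12 (70.6%) had a summit in the window and 8 (47.1%) at an own start. Their strongest peaks lay in the windows of PPP1R15, a phosphatase subunit acting on eIF2 (signal 725, at −247 bp from the start of Sox14), and of pAbp, the poly(A)-binding protein gene (180, 507 bp from its own TSS). Of 20 cytosolic aminoacyl-tRNA synthetase genes, which charge tRNAs, 13 (65.0%) and 10 met the wider and the narrower rule. They were led by AlaRS (666, at the start of CG13390) and IleRS (282, at −159 bp from its own). Of 92 cytosolic ribosomal protein genes 64 (69.6%) and 53 (57.6%) did, among them RpL3 (420, at −108 bp from the start of CG17726). For 73 mitochondrial ribosomal protein genes the counts were 35 (47.9%) and 25 (34.2%), and they included mRpS10 (1068, nearest to Art3) and mRpL41 (1046). Differences between these lists were not tested. Median window lengths were 5.96 kb for the factor genes, 9.81 kb for partners, 6.65 kb for synthetases, and 5.32 and 4.91 kb for cytosolic and mitochondrial ribosomal proteins.

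**Figure D5:**
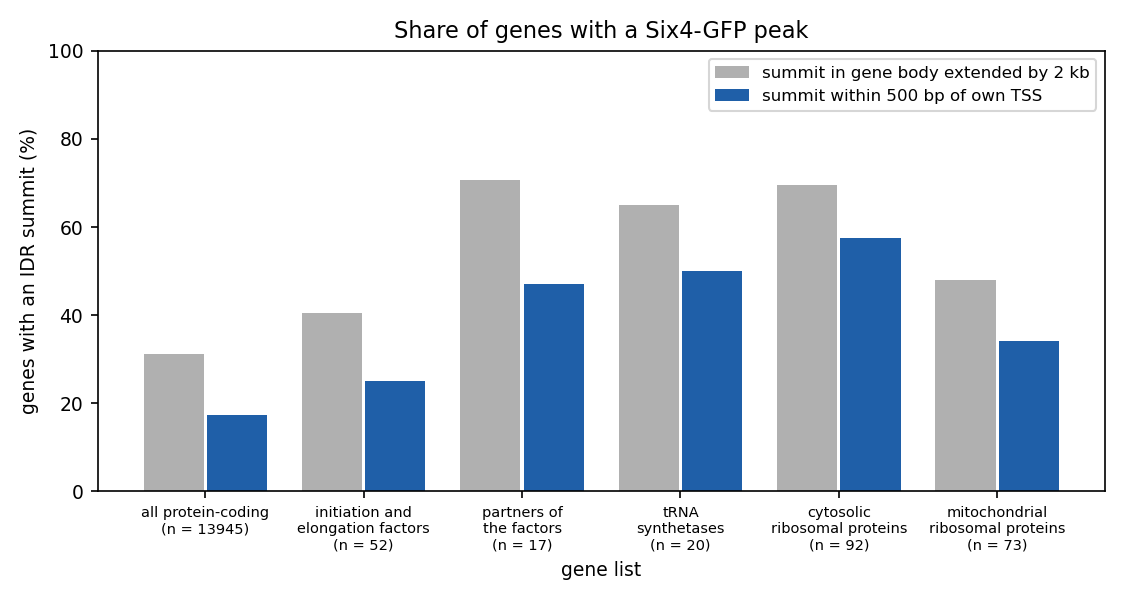
Share of genes (%, bars from 0) with an IDR summit in the gene body extended by 2 kb (grey) and within 500 bp of an own TSS (blue), for all protein-coding genes and 5 lists of translation genes. The initiation and elongation factors, at 40.4% and 25%, lie between all protein-coding genes and the other 4 lists.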

How the data were processed

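Per the notes deposited beside the files, the authors made a peak list with background entries for each replicate and for both replicates pooled, as input for the IDR procedure, and the final IDR set. The signal column, deposited by the authors for every peak, served only to order and describe peaks within a list. The sources used here give no aligner, peak caller, IDR threshold or library depth, so precision is set by the number of peaks. The lists on dm6 were used. Those on dm3 were not used here.

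Genes and TSSs were those of Ensembl 115 on Release 6. Arm names matched after removal of a prefix, and no peak end exceeded its arm. All 20 synthetase and 17 partner genes listed were found in it. A summit was given to a gene when it lay in the gene or within 2 kb of it, or within 500 bp of any annotated TSS of the gene. Replicate entries were matched by an overlap of at least 1 bp and the nearest summit. Motifs were searched by exact letters. Sequences were read from the RefSeq copy of Release 6, with overlaps of exons removed and none from arm 2R. Counts were made with Python 3.11.15, numpy 2.4.6 and pandas 2.3.3, and the counting and motif search were tested on simulated data.

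No test was made: there is 1 group of 2 replicates. Members and lists were chosen with earlier results of these data known. Every gene with a summit is named with values and every gene without one is named. Of each other list the 2 genes with the strongest peak are named, except 1 that is not reported here. Alternatives were other peak lists, window lengths, promoter distances, gene assignment rules and motif windows.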

Additional observations from a re-analysis of the deposited data

How the results depend on the processing

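Of 30 alternative values, 19 stayed close to the value reported: within 1.5 times for counts, and within 1 SD of the 2 replicates for the median rank. Closeness refers to the number and not to which genes were counted. The nearest TSS rule, with 14 genes, was taken as close but shared only 13 of the 21 genes. The count of genes with a summit in the window fell from 21 to 9 with the gene body alone and to 12 with the 1987 strongest IDR peaks, and the count at own starts fell from 13 to 8 with those peaks, which are fewer by construction. Leaving out a replicate gave 17 to 21 windows, 12 to 12 starts, 7 to 9 genes with their strongest peak nearest to an own TSS, and a median rank of 1105 to 1433 for the strongest peaks, against 1626. The median rank was 2096 with the gene body alone. The cause of these shifts in rank was not tested. With motif windows of 50 bp the DRE was at 3 peaks (9.09% against 1.48% of all IDR peaks), the M1BP site at 1 (3.03% against 0.453%) and the TATA box at 5 (15.2% against 22.9%). Over the 1861 peaks at protein-coding starts the 50 bp shares were 3.12% for the DRE and 0.86% for the M1BP site. With windows of 250 bp TGATAC was at 2 (6.06%, against 13.1% of all IDR peaks), the E box at 9 (27.3% against 24.4%) and TAATTA at 10 (30.3% against 32.7%). The E box share was thus above that of all IDR peaks at 250 bp, and at 50 bp (6.06% against 3.07%), but below it at 100 bp. No paired analysis was possible because the 2 replicates form 1 group. Depth is unknown, so a gene without a summit was not detected under the authors' threshold, and groups of 2 to 8 genes allow no reading of their shares.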

Other observations

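Within 1000 bp of an own TSS, 28 of the 52 genes (53.8%, against 42.9% of all protein-coding genes) had the TSS of another protein-coding gene. For 24 (46.2% against 34.5%) the nearest such gene was on the opposite strand. The differences were not tested. These 24 included 8 of the 13 genes with a summit at their own start. The same share was not counted for all protein-coding genes with such a summit, so the 8 of 13 is not read as a difference. eIF2gamma shares an annotated TSS with Su(var)3-9, a heterochromatin methyltransferase gene, and its best pooled entry, at rank 10518, is below the IDR threshold. eIF5 shares one with CG46312 and eIF4G2 one with CG33111. By arm, 7 of 13 genes on 2R had a summit in the window (29.3% of all genes there), 5 of 15 on 3R (32.5%), 4 of 11 on 3L (33.7%), 3 of 5 on 2L (30.9%), 2 of 7 on X (29.6%) and 0 of 1 on chromosome 4 (13.8%). These numbers per arm are too small to be read as differences between arms.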
